A study of Mus musculus with 8 samples.

Results

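The genes described here carry the death signal of the receptors TNFR1 and Fas in regulatory T cells (Tregs). They are the receptors *Tnfrsf1a* (TNFR1) and *Fas*, the adaptors *Tradd* and *Fadd*, the kinases *Ripk1* and *Ripk3*, the necroptosis effector *Mlkl*, the initiator caspase *Casp8*, its catalytically inactive homologue *Cflar* (c-FLIP) and the deubiquitinase *Cyld*. They were taken by symbol from a list of names that sets no threshold on expression, and all 10 were found among the 20172 genes of the deposited table.

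TNFR1 and Fas each carry a death domain in their cytoplasmic tail. Ligand-bound TNFR1 recruits TRADD and RIPK1 and first builds a ubiquitin-based complex that activates NF-κB. When that complex comes apart, or when Fas recruits FADD directly, caspase-8 can be activated and apoptosis follows, and when caspase-8 is inactive RIPK1, RIPK3 and MLKL can execute necroptosis. c-FLIP pairs with caspase-8 and restrains it, and CYLD removes ubiquitin chains from RIPK1. TNFR2, the other receptor for TNF, has no death domain. It is a marker of activated Tregs, and Fas takes part in the removal of activated T cells.

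The libraries came from splenic Tregs sorted by surface TNFR2, with 4 libraries of TNFR2+ and 4 of TNFR2- cells. The mice carried Foxp3 YFP-cre, in which the *Foxp3* locus drives a fluorescent Cre, and the series gives them as female, while the study's methods name both sexes for its mice in general. Both populations came from this genotype, without treatment named in the labels and with no age given there. The study's methods give an age range in weeks for its mice in general. Tregs were isolated as YFP+ CD4 T cells and divided by an antibody to TNFR2, so the populations differ by surface protein and not by a genetic change. The study gives an n equal to the number of libraries of each population, but neither it nor the labels state whether each library was a separate mouse or a pool. Thus p-values measure the spread between these libraries, which may be technical.

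Estimated depths were 9100000 to 12112000 reads per library. *Foxp3* was at 2812 to 3313 normalized counts in TNFR2+ and 3292 to 4033 in TNFR2- libraries. *Tnfrsf1b*, which encodes TNFR2, had a log2 fold change of 0.90 between the populations (limma, adjusted p = 0.00449, and 0.0574 without the intensity trend). Summed levels of 8 Treg and T cell markers were 32774 to 38302 in TNFR2+ and 25216 to 30396 in TNFR2- libraries, without overlap, although not every marker went this way, and *Il2ra* was at 2561 to 3070 and 3219 to 3990. Those of B cell markers (7 of 8 in the table) were 411 to 521 and 206 to 479. Most of this sum was *Cd22*, at 273 to 350 in TNFR2+ and 54.7 to 223 in TNFR2- libraries (limma, adjusted p = 0.0612). The remaining B cell markers overlapped between the populations, with *Ebf1* at 25.9 to 50.5 and 41.4 to 80.4, and *Cd79a* at 0 to 2.90 and 0 to 6.10. The part of these markers in the results was not tested. TNFR2- replicate 3 stood apart on the second principal component, at 91.3 against −39.1 to 18.0 for the other libraries, and values without it are given where a result rests on it. The Y-linked genes *Uty* and *Kdm5d* were listed at 72.2 to 212 and 122 to 257 normalized counts in all 8 libraries, beside *Xist* at 16369 to 18154 in TNFR2+ and 10228 to 13795 in TNFR2- libraries (limma, adjusted p = 0.00773). Whether their X-linked homologues contributed to these values was not tested.

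The promoters of the receptors and of the *Casp8* and *Cflar* pair are shown because NF-κB is the transcription factor that TNFR1 and TNFR2 both activate. *Cflar* (chromosome 1, 58711508 to 58758884) and *Casp8* (chromosome 1, 58795374 to 58847503) are neighbours on the plus strand of GRCm38, with 36489 bases and 1 pseudogene between them. *Tnfrsf1a* lies on chromosome 6 (125349362 to 125362484) and *Fas* on chromosome 19 (34290666 to 34327772), both on the plus strand. Each sequence is the 250 bases before the start site in RefSeq GRCm38.p6, on the plus strand and 5′ to 3′. Capitals mark NF-κB-like letters (GGG, any 5 bases, then CC), searched on both strands. The stretches shown for *Casp8* and *Tnfrsf1a* lie within the genes as annotated by GENCODE, which places their starts further upstream.
Casp8, chr1:58802252-58802501: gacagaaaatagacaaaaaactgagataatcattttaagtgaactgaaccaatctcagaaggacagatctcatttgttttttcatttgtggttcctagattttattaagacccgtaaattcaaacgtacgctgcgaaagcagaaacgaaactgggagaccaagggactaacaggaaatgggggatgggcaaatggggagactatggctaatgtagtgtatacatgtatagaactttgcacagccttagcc
Cflar, chr1:58711241-58711490: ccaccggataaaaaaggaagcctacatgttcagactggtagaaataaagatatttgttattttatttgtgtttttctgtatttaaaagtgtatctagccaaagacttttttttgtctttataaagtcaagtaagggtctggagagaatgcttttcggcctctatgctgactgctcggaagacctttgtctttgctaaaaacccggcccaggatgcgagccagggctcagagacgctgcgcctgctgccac
Tnfrsf1a, chr6:125349473-125349722: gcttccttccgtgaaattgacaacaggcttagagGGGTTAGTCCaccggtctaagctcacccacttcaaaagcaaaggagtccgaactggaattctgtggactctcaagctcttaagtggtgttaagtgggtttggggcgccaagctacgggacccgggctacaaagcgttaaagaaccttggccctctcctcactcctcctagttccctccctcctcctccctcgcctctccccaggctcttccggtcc
Fas, chr19:34290409-34290658: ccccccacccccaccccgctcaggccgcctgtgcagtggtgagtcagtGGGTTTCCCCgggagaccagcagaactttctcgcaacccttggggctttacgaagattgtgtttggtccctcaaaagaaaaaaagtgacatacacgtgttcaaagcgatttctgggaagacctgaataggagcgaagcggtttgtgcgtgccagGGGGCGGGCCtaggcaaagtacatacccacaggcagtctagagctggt
The letters occurred at 1 position before *Tnfrsf1a* (216 bases before the start) and at 2 positions before *Fas* (202 and 48 bases before it). The stretches before *Casp8* and *Cflar* do not hold them. Of the 10 genes, 9 had a RefSeq promoter, and 4 of these (*Tnfrsf1a*, *Fas*, *Ripk1* and *Cyld*) had a promoter with the letters. They stand in 45.8% of all 32851 promoters of this length. A match of letters is no evidence of binding.

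Among the 10 genes, *Casp8* was lower in TNFR2+ Tregs and the other 9 did not pass the test. This is 1 of 10 genes (10%), where 7.91% of the 13990 genes tested were called at an adjusted p under 0.05, 4.52% higher and 3.39% lower in TNFR2+ Tregs. Scaling to library sums without mitochondrial genes, *Gm26917* and *Gm42418* gave 834 higher and 358 lower genes, against 633 and 474 here, and kept *Casp8* as the 1 gene called of the 10. All 10 genes passed the minimum mean of 10 normalized counts. *Tnfrsf1a* and *Casp8* had an unadjusted p under 0.05 (2 of 10 genes, where 23% of all genes tested had one). By sign, 5 of the 10 log2 fold changes were positive and 5 negative, with a median of −0.02 beside −0.01 over all genes. Only for *Casp8* did the values of the populations not overlap, which was the case for 15.4% of all genes tested.

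**Figure D1:**
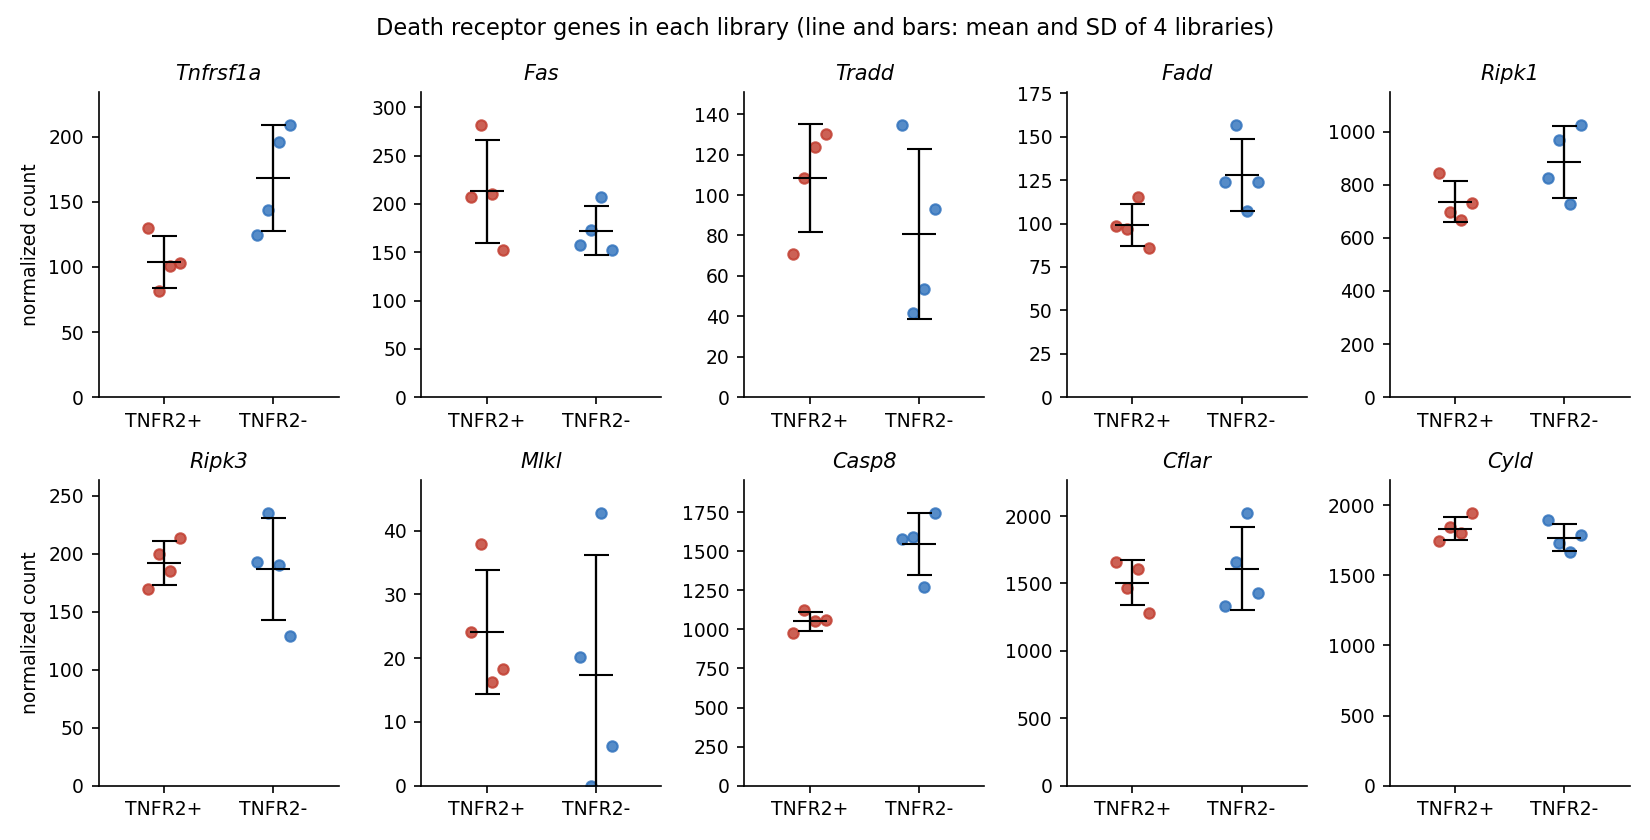
Normalized counts (vertical axis, from 0 in each panel) of the 10 genes in the 4 TNFR2+ and the 4 TNFR2- libraries. Points are libraries, and the line with bars is the mean with its SD; the lower bar of *Mlkl* in TNFR2- Tregs is cut at 0. *Casp8* is the gene whose points do not overlap, at 977 to 1124 in TNFR2+ and 1272 to 1743 in TNFR2- Tregs.

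Neither receptor passed the test. *Tnfrsf1a*, the TNF receptor with a death domain, was measured at 130.03, 81.3, 101 and 103 normalized counts in TNFR2+ replicates 1 to 4 and at 124, 143, 196 and 209 in TNFR2- replicates 1 to 4. TNFR2+ replicate 1 lay above TNFR2- replicate 1, and the other TNFR2+ libraries lay below all TNFR2- libraries. The means were 104 ± 20.0 and 168 ± 40.9 (SD, n = 4), a log2 fold change of −0.68 (standard error 0.28, 95% interval −1.28 to −0.08). It had an unadjusted p of 0.0299 and did not pass after adjustment (limma, adjusted p = 0.162), and its adjusted p stayed between 0.112 and 0.335 under every alternative run. Myeloid cells also express *Tnfrsf1a*. Of 12 myeloid markers 7 were in the table, with summed levels of 60.3 to 117 in TNFR2+ and 85.9 to 173 in TNFR2- libraries. *Csf1r*, *Fcgr3*, *S100a9* and *Mpeg1* were listed at 0 in at least 4 libraries. The markers did not go one way. *Itgam* was at 2.92 to 8.80 in TNFR2+ and 10.6 to 21.2 in TNFR2- libraries (limma, adjusted p = 0.375), *Mpeg1* at 0 to 7.59 and 0 to 1.17, and *Cd68* at 22.3 to 67.5 and 19.0 to 62.5. Their part in the *Tnfrsf1a* values was not tested, and in bulk RNA fewer cells of a type and less RNA per cell cannot be told apart.

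*Fas*, the receptor for Fas ligand, was measured at 207, 282, 210.5 and 152 normalized counts in TNFR2+ replicates 1 to 4. It was at 157, 173, 207 and 152 in TNFR2- replicates 1 to 4. The highest value was that of TNFR2+ replicate 2, and the populations overlapped. The means were 213 ± 53.2 and 172 ± 24.9 (SD, n = 4), with a log2 fold change of 0.28 (95% interval −0.25 to 0.81, limma, adjusted p = 0.545). Taken as a ratio within a library, *Tnfrsf1a* over *Fas* was −0.67, −1.78, −1.05 and −0.56 on the log2 scale in TNFR2+ Tregs. The same ratio was −0.34, −0.27, −0.08 and 0.46 in TNFR2- Tregs. Each TNFR2+ library thus had less *Tnfrsf1a* relative to *Fas* than each TNFR2- library, with means of −1.02 ± 0.55 and −0.06 ± 0.36 (SD, n = 4) and a difference of −0.96. This ratio is a description and was not tested.

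The adaptors did not pass the test. *Fadd*, which couples Fas to caspase-8, was at 98.9, 96.7, 115 and 86.1 normalized counts in TNFR2+ Tregs and at 124, 157, 107 and 124 in TNFR2- Tregs. TNFR2+ replicate 3 lay above TNFR2- replicate 3, and the remaining TNFR2+ libraries lay below every TNFR2- library. Its log2 fold change was −0.36 (95% interval −0.93 to 0.21, limma, adjusted p = 0.465). *Tradd*, the first adaptor of TNFR1, ranged from 70.8 to 130.2 in TNFR2+ and from 41.7 to 135 in TNFR2- libraries, with a log2 fold change of 0.53 (95% interval −0.33 to 1.39, limma, adjusted p = 0.472). The intervals of both adaptors include changes of either direction.

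*Ripk1*, the kinase shared by the survival and death complexes of TNFR1, was at 845, 699, 667 and 731 normalized counts in TNFR2+ Tregs and at 825, 968, 727 and 1026 in TNFR2- Tregs. The populations overlapped, and the means were 735 ± 77.4 and 887 ± 136 (SD, n = 4). The log2 fold change was −0.26 (95% interval −0.60 to 0.07, limma, adjusted p = 0.347). *Ripk3*, the kinase that phosphorylates MLKL, ranged from 169.6 to 214 in TNFR2+ and from 129 to 235 in TNFR2- libraries. Its log2 fold change was 0.07 (95% interval −0.45 to 0.59, limma, adjusted p = 0.906), and its sign depended on the normalization.

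*Mlkl*, whose product permeabilizes the plasma membrane in necroptosis, had the lowest level per length of the 10 genes. It was at 24.0, 37.9, 16.3 and 18.4 normalized counts in TNFR2+ Tregs and at 20.2, 0, 42.7 and 6.21 in TNFR2- Tregs. TNFR2- libraries thus held both the lowest and the highest value. On the log2(value + 1) scale the fold change was 1.40 with a wide interval (−0.80 to 3.61, limma, adjusted p = 0.457). It was 0.80 with a pseudocount of 5, 0.34 without TNFR2- replicate 2, the library at 0, and 2.16 without TNFR2- replicate 3. The means were 24.1 ± 9.73 in TNFR2+ and 17.3 ± 18.9 in TNFR2- Tregs (SD, n = 4). A difference in *Mlkl* was not detected, at low values that spread widely between TNFR2- libraries.

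*Casp8*, the initiator caspase of both receptors, was measured at 977, 1124, 1052 and 1058 normalized counts in TNFR2+ replicates 1 to 4. It was at 1578, 1593, 1272 and 1743 in TNFR2- replicates 1 to 4. All TNFR2+ libraries lay below all TNFR2- libraries, and the TNFR2- library nearest to them was replicate 3. The means were 1053 ± 60.5 and 1546 ± 197 (SD, n = 4), so that *Casp8* was 1.46-fold higher in TNFR2- Tregs. The log2 fold change was −0.55 (standard error 0.13, 95% interval −0.83 to −0.26, limma, adjusted p = 0.0234). The exact permutation test gave a 2-sided p of 0.0286, the smallest that 70 relabellings of 8 libraries allow. This difference was larger in size than that of 64.7% of all genes tested.

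The call of *Casp8* was close to the threshold. It was lost without TNFR2+ replicate 1, 2 or 3 and without TNFR2- replicate 1, 2 or 4, with adjusted p values of 0.051 to 0.0688 and log2 fold changes of −0.58 to −0.49, and it stood without TNFR2- replicate 3 (−0.64, limma, adjusted p = 0.00849). It was also lost when the variances were moderated without an intensity trend (limma, adjusted p = 0.0974). *Gm37760*, annotated inside *Casp8* on the same strand, had means of 158 and 156 normalized counts in TNFR2+ and TNFR2- Tregs, and reads shared between them could be split by the counting.

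**Figure D2:**
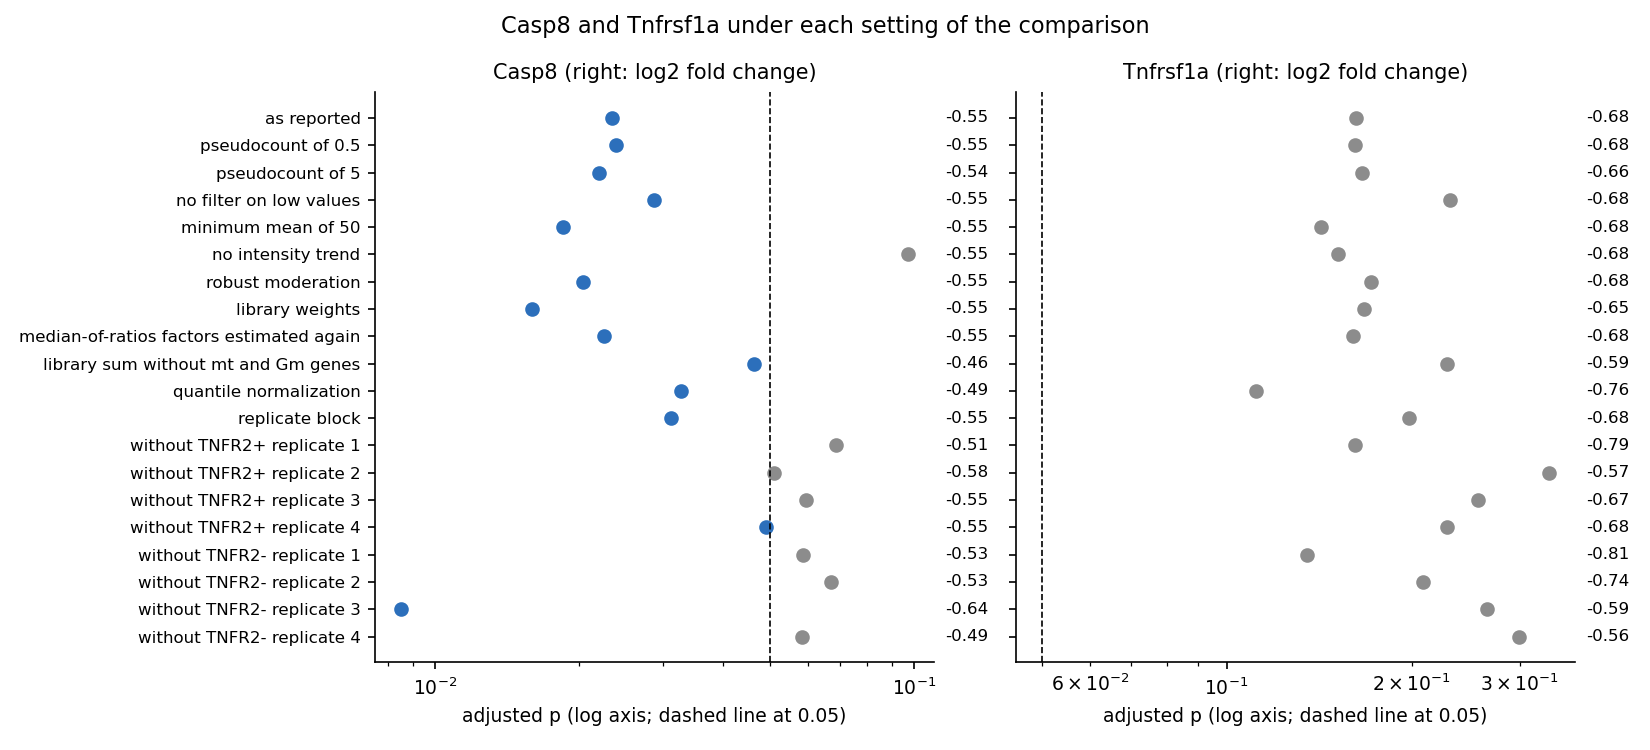
Adjusted p (horizontal log axis) of *Casp8* and *Tnfrsf1a* as reported and under 19 alternatives, with the log2 fold change printed beside each point and a dashed line at 0.05. Blue points passed and grey points did not. *Casp8* crosses the line in 7 alternatives, 6 of them without a library, and *Tnfrsf1a* stays to the right of it in all.

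*Cflar* encodes the homologue that restrains caspase-8. It was at 1657, 1469, 1610 and 1283 normalized counts in TNFR2+ Tregs and at 1329, 1657, 2021 and 1426 in TNFR2- Tregs. The populations overlapped, and the log2 fold change was −0.08 (95% interval −0.41 to 0.24, limma, adjusted p = 0.794), with a sign that turned without TNFR2- replicate 3 (0.03). The log2 ratio of *Cflar* to *Casp8* was 0.76, 0.39, 0.61 and 0.28 in TNFR2+ Tregs and −0.25, 0.06, 0.67 and −0.29 in TNFR2- Tregs. TNFR2- replicate 3 lay among the TNFR2+ libraries, and the other TNFR2- libraries lay below them. The means were 0.51 ± 0.22 and 0.05 ± 0.44 (SD, n = 4), values given as a description. *Cflar* has the near-identical copies *Gm47551* and *Gm9845*, the latter listed at 45.8 to 151, so a share of its reads is uncertain. The same holds for *Casp8* with *Gm20257* (0 to 28.6) and *Fadd* with *Gm22993*, which at 154 to 375 lay at the level of *Fadd* or above it. *Fadd* also matched *Gm25072*, *Tnfrsf1b* matched *Gm23335* and *Gm44302*, and *Fas* overlaps *Gm27818* on the same strand. The values of these were not examined. The search asked only for a match over part of the shorter transcript, so how much of each gene a match covers was not tested. *Ripk1* matched *Gm17084* (0 to 86.2), which is annotated as overlapping *Ripk1* on the same strand and is not a copy elsewhere. Reads shared between them could be split by the counting.

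*Cyld*, the deubiquitinase that trims chains on RIPK1, had the smallest log2 fold change of the 10 genes. It ranged from 1746 to 1942 normalized counts in TNFR2+ and from 1662 to 1893 in TNFR2- libraries. The log2 fold change was 0.05 (95% interval −0.19 to 0.29, limma, adjusted p = 0.828), the narrowest interval of the 10. *Fadd*, *Ripk1*, *Mlkl* and *Cyld* overlap annotated genes on the opposite strand. The libraries were stranded, but whether strand was used in counting is not given in the sources used here.

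**Figure D3:**
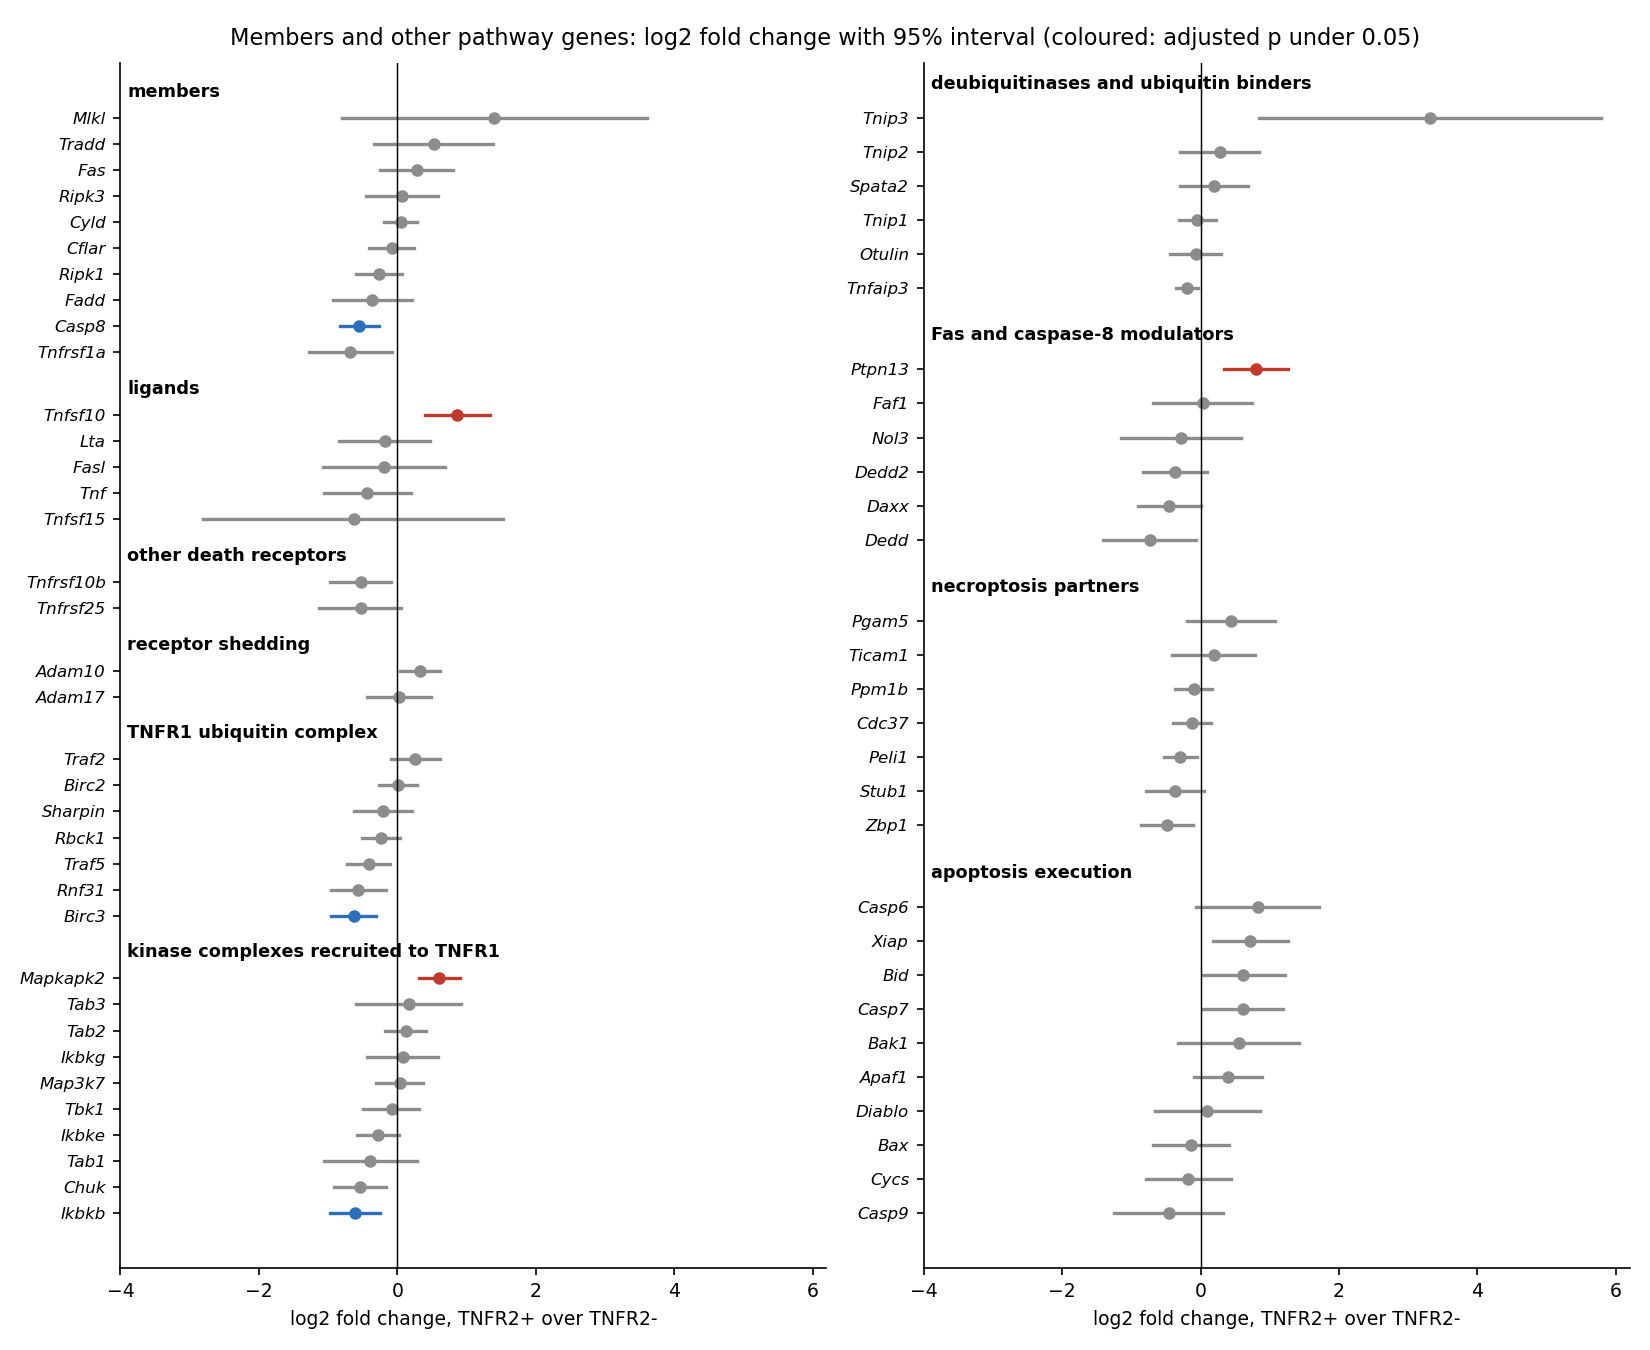
Log2 fold change, TNFR2+ over TNFR2- Tregs (horizontal axis), with its 95% interval for the 10 genes and for 55 other tested genes of the pathway, grouped by role. Red marks genes higher and blue genes lower at an adjusted p under 0.05, and grey marks the rest; *Casp8* is the coloured gene of the 10, at −0.55, and *Tnfsf10* has the largest coloured change of the others, at 0.87.

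The 10 genes also differed in level. Counts were divided by the length of the longest protein-coding transcript, which gives normalized counts per kb. On this scale *Casp8* was the most abundant gene in both populations, at 407 ± 23.4 per kb in TNFR2+ and 598 ± 76.4 per kb in TNFR2- Tregs (SD, n = 4). *Cflar* and *Cyld* followed at 229 and 228 per kb in TNFR2+ Tregs and at 245 and 220.5 per kb in TNFR2- Tregs, with overlapping ranges. In TNFR2+ Tregs *Fas* (144 per kb), *Ripk1* (114) and *Ripk3* (97.7) came next, each overlapping its neighbour, and below them *Tradd* (64.2) overlapped *Tnfrsf1a* (48.2). *Fadd* (25.4) and *Mlkl* (12.05) were lowest and did not overlap each other.

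In TNFR2- Tregs the middle of the order was less resolved. *Ripk1* (137 per kb), *Fas* (116), *Ripk3* (95.004), *Tnfrsf1a* (78.0) and *Tradd* (47.8) each overlapped the next gene, down to *Fadd* (32.8). *Mlkl* (8.63) lay below and did not overlap *Fadd*. TNFR2 transcripts outnumbered TNFR1 transcripts on this scale, with *Tnfrsf1b* over *Tnfrsf1a* at 12.8 to 14.7 in TNFR2+ and at 3.39 to 6.15 in TNFR2- libraries. *Tnfrsf1b* encodes the sort marker, so a gap between the populations was built into this ratio. The order depended on the length used. With the median length of protein-coding transcripts, *Cflar* (582 per kb) and *Casp8* (559) overlapped in TNFR2+ Tregs, and the ratio of *Tnfrsf1b* to *Tnfrsf1a* was 5.25 to 6.05 and 1.39 to 2.53.

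**Figure D4:**
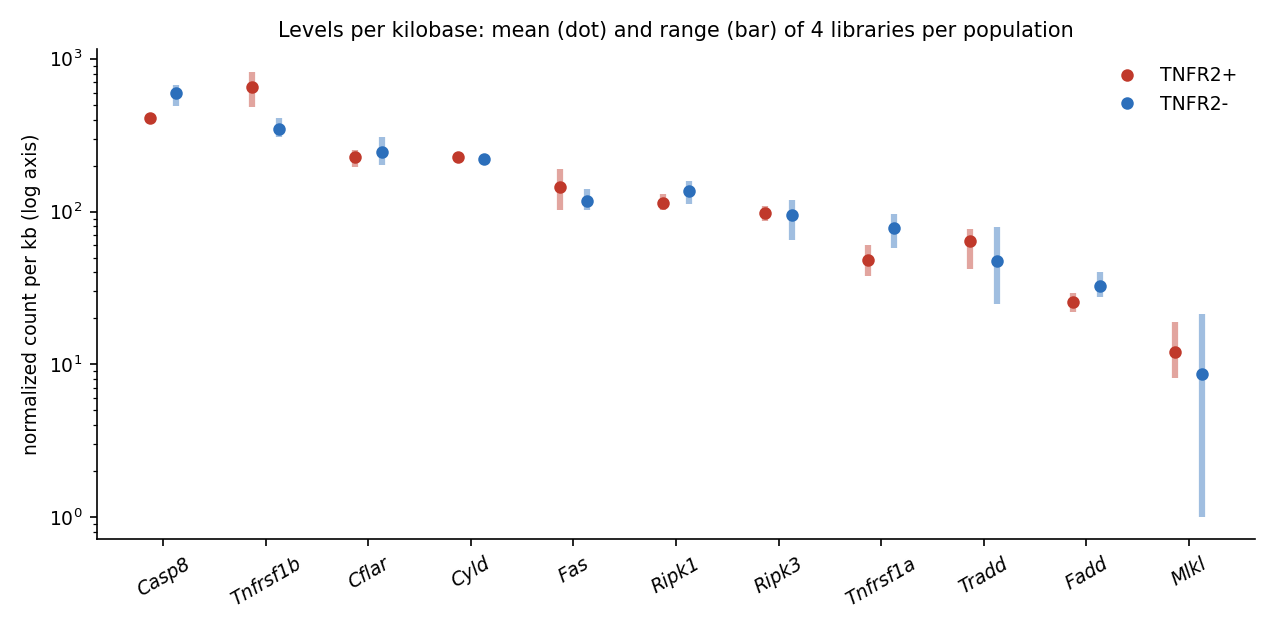
Normalized counts per kb of the longest protein-coding transcript (vertical log axis) for the 10 genes and *Tnfrsf1b*. Dots are means and bars the range of 4 libraries, red for TNFR2+ and blue for TNFR2- Tregs; the bar of *Mlkl* in TNFR2- Tregs is drawn to 1 because 1 library was at 0. *Casp8* lies above the other 9 genes in both populations, and *Mlkl* lies below them.

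Other genes of the same pathway were read from a list of 56 genes in 9 roles. Of these, 55 were tested and 5 were called (9.09%, where 7.91% of all genes were called), 3 higher and 2 lower in TNFR2+ Tregs. The 50 genes not called had log2 fold changes between −0.73 and 3.32. The median over the list was −0.10, with 24 genes positive and 31 negative. In limma, 18 of the 55 genes had an unadjusted p under 0.05, where 23% of all genes tested had one. For 12 of the 55 the populations did not overlap, which was the case for 15.4% of all genes tested.

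None of the 10 listed genes that execute apoptosis was called (limma), and 3 of them had an unadjusted p under 0.05, where 23% of all genes tested had one. Their log2 fold changes were −0.46 to 0.83, 7 positive and 3 negative, with a median of 0.47 beside −0.01 over all genes. Of the 6 modulators of Fas and caspase-8, *Ptpn13*, a phosphatase that binds the tail of Fas, was called. It was at 2160 to 2848 normalized counts in TNFR2+ and 905 to 2207 in TNFR2- Tregs, overlapping through TNFR2- replicate 3 (log2 fold change 0.80, limma, adjusted p = 0.0371). It passed in 1 of 8 fits without a library, the one without TNFR2- replicate 3 (1.01, limma, adjusted p = 0.00459), and otherwise had adjusted p values of up to 0.113.

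Ligands were measured in the same cells. *Tnfsf10* (TRAIL), which binds another death receptor, was at 456, 529.6, 520.4 and 581 normalized counts in TNFR2+ Tregs and at 378, 233, 351 and 209 in TNFR2- Tregs. All TNFR2+ libraries lay above the TNFR2- libraries (log2 fold change 0.87, standard error 0.22, limma, adjusted p = 0.0261), and the call was lost without TNFR2+ replicate 2, 3 or 4 and without TNFR2- replicate 2 or 4 (limma, adjusted p up to 0.0791). *Fasl*, the ligand of Fas, was at 48.2 to 117 in TNFR2+ and 44.1 to 119 in TNFR2- libraries (−0.19, limma, adjusted p = 0.8292). *Tnf* was at 161 to 341 in TNFR2+ libraries and at 386, 382, 379.9 and 184 in TNFR2- replicates 1 to 4. Its log2 fold change was −0.43 (limma, adjusted p = 0.419) and ranged from −0.69 without TNFR2- replicate 4 to −0.24 without TNFR2+ replicate 3, without passing in any fit. Neither tested death receptor outside the 10 genes, *Tnfrsf10b* and *Tnfrsf25*, was called, with log2 fold changes of −0.53 for both (limma, adjusted p = 0.138 and 0.272). For *Tnfrsf10b*, the receptor of TRAIL, the populations did not overlap, at 232 to 332 in TNFR2+ and 337 to 516 in TNFR2- libraries. *Tnfrsf21* was below the minimum mean.

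In the ubiquitin complex of TNFR1, *Birc3* (cIAP2), a ubiquitin ligase for RIPK1, was the gene called among 7. It was at 2028, 2240.0, 1856 and 1617 normalized counts in TNFR2+ Tregs and at 2999, 3851, 2664 and 2555 in TNFR2- Tregs. No TNFR2+ library reached the TNFR2- range (log2 fold change −0.63, standard error 0.15, limma, adjusted p = 0.0206), and the call was lost without TNFR2+ replicate 3 or 4 and without TNFR2- replicate 1 or 2 (limma, adjusted p up to 0.0635). The list also held 10 genes for kinases of TNFR1 signalling and their regulatory subunits. Among these, *Ikbkb* (IKKβ), the NF-κB kinase, was lower at 1513 to 1747 in TNFR2+ against 1772 to 3161 in TNFR2- libraries (−0.61, limma, adjusted p = 0.0417). *Mapkapk2* (MK2), which phosphorylates RIPK1, was higher at 1504 to 1884 against 956 to 1297 (0.61, limma, adjusted p = 0.0157). *Ikbkb* lost its call in each fit without a library except the one without TNFR2- replicate 3 (limma, adjusted p up to 0.127), and *Mapkapk2* without TNFR2+ replicate 1 or 2 (limma, adjusted p up to 0.0562).

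No gene was called among the 6 tested deubiquitinases and ubiquitin binders, the 7 necroptosis partners and the 2 sheddases of TNF receptors (limma). Of these, 2, 2 and 1 genes had an unadjusted p under 0.05, where 23% of all genes tested had one. *Tnfaip3* (A20), which edits ubiquitin on RIPK1, was at 46271 to 50915 in TNFR2+ and 53493 to 57566 normalized counts in TNFR2- libraries. The populations did not overlap, but the difference was small and did not pass (log2 fold change −0.20, limma, adjusted p = 0.147).

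Genes with the most similar profile over the 8 libraries were found by the root mean square difference of centred log2 values among 10244 genes. Nearest to *Casp8* were *Tpcn1* (0.0599), *Pik3cd* (0.0648) and *Tgfbr2* (0.0673), where the median over genes was 0.472. All 3 were lower in TNFR2+ Tregs, with log2 fold changes of −0.63, −0.58 and −0.45 (limma, adjusted p = 0.0341, 0.00791 and 0.032). They were chosen for closeness to *Casp8* over the same libraries, with the difference between the populations included. Their direction and calls thus follow largely from that choice and are no separate result. Nearest to *Tnfrsf1a* were *Map4k2* (0.161), an identifier without a symbol (ENSMUSG00000107231, 0.171) and *Sephs2* (0.176), against a median of 0.565. Of these *Map4k2* was lower in TNFR2+ Tregs (−0.72, limma, adjusted p = 0.00439), a direction that the choice by profile likewise favours. Nearest to *Fas* were *Anapc1* (0.0785), *Accs* (0.118) and *Etfdh* (0.128), against a median of 0.473, and none of these 3 was called. The distances describe these 8 libraries, which share their preparation, and were not tested.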

How the data were processed

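RNA from TNFR2+ and TNFR2- Tregs (4 libraries each) was analysed from the table of normalized counts. The authors prepared stranded total RNA libraries, trimmed reads with Trim Galore, quantified transcripts with Salmon 1.3.0 on Ensembl GRCm38 and normalized with DESeq2 1.28. The deposited values are this normalized signal per gene, not on a log scale. How transcripts were summed to genes is not given in the sources used here. Low values lay on whole-read steps within 0.1 in 69.7% to 96.5% of cases for genes with 1 transcript, and in 32.0% to 42.9% for genes with more than 3, where chance gives 20%, so reads were not recovered and no count model was used. Dividing library sums by the step gave the depths.

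Symbols came from GENCODE on GRCm38 (20008 of 20172 identifiers matched). Genes with a mean of at least 10 were tested on log2(value + 1) with limma 3.58.1 in R 4.3.3 (intensity trend, 2-sided, Benjamini-Hochberg adjustment over 13990 genes). Single genes also had an exact permutation test. Fold changes are on this scale. They can understate changes of low genes, and can also overstate them where values spread widely between libraries. *Mlkl* had a log2 fold change of 1.40, beside means of 24.1 in TNFR2+ and 17.3 in TNFR2- Tregs. Near-identical copies were searched with blastn 2.17.0 (at least 95% identity over 50% of the shorter transcript). The genes named are the 10 genes, *Tnfrsf1b*, called genes of the pathway list (up to 4 per role), *Fasl*, *Tnf*, *Tnfaip3*, and the 3 nearest profiles (mean of at least 50) of the receptors and of called members. Copies and overlapping genes, *Il2ra*, *Xist*, *Uty*, *Kdm5d* and the death receptors outside the 10 genes were added after their values were seen. So were the values of single myeloid and B cell markers. Members and lists were chosen with earlier results of these data known. A gene of the pathway is not reported here, and list counts are without it. The procedure was tested on simulated data. Alternatives changed the pseudocount, filter, moderation, weights, normalization and replicate block, or left out a library.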

Additional observations from a re-analysis of the deposited data

Results flagged for a closer look

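*Tnf* in TNFR2- replicate 4 stood apart from its group, at 184 normalized counts against 379.9 to 386 in the other 3 TNFR2- libraries, so that its gap to the nearest library was 0.979 of the range of the group. It lay within the range of the TNFR2+ libraries (161 to 341). It was the 1 such value among 38 groups of 4 libraries checked, where chance gives about 1 in 20.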

How the results depend on the processing

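Without the intensity trend, limma called 465 of 13990 genes instead of 1107 (283 higher and 182 lower), with 2946 at an unadjusted p under 0.05. It called 0 of the 10 genes (2 at an unadjusted p under 0.05). Of the 55 tested genes of the pathway list it called 0 (16 at an unadjusted p under 0.05). Leaving out a library gave 642 to 1301 calls over all 13990 genes, 0 to 1 among the 10 genes and 1 to 6 among the 55 genes of the pathway list. Scaling to library sums raised the share of higher genes among those called from 57.2% to 69.97% and moved the median of all genes from −0.01 to 0.08. Under it *Cflar* was at 0.00, and without a library it ranged from −0.17 to 0.03 (the latter without TNFR2- replicate 3). *Ripk3* turned to −0.02 with quantile normalization and ranged from −0.10 (without TNFR2- replicate 4) to 0.19. *Fasl* ranged from −0.47 to 0.00 (the latter without TNFR2- replicate 4). The cause of these shifts was not tested. *Birc3* and *Ikbkb* lost their call with quantile normalization, which left 3 of 5 calls in the pathway list, and *Ikbkb* with library sums. With the median transcript length, levels per kb over the 8 libraries moved from 63.1 to 154 for *Tnfrsf1a*, 125 to 248 for *Ripk1*, 503 to 690.2 for *Casp8* and 237 to 602 for *Cflar*. Libraries of equal replicate number were no more alike than others (r of −0.039 to 0.001 for equal numbers, −0.099 to 0.077 for others). Whether equal numbers mark the same sort is not stated, and with 4 libraries per population this check cannot settle it. The replicate block gave 1183 calls with *Casp8* at an adjusted p of 0.031 in limma. Over 19 named genes, 314 of 360 values kept direction and side of the threshold, but most of these genes were not called. Among called genes, *Casp8* kept both in 12 of 19 alternatives, *Ptpn13* in 11 and *Ikbkb* in 9. *Birc3* and *Tnfsf10* kept them in 13, *Mapkapk2* in 16 and *Tnfrsf1b* in 18. Low levels and the spread between TNFR2- libraries limit *Mlkl*.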
